A study of Mus musculus with 4 samples.

Results

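Among splenic germinal centre (GC) B cells profiled one by one, 1940 of 28550 kept cells carried high transcripts of the helicase subunits Mcm3, Mcm5 and Mcm6 with little mRNA of replication-dependent histones or of mitotic genes. These cells are called early S cells here after that signature. They were chosen by their own counts, each expressed as UMIs (unique molecular identifiers, counted mRNA molecules) per 10000 UMIs of the cell (CP10K). Cells of 100 to 5500 genes and under 10% mitochondrial counts qualified when Mcm3, Mcm5 and Mcm6 together reached 6 CP10K, Hist1h2ap and Hist1h1b together stayed under 10, Cdc20, Ccnb1 and Cenpf together stayed under 3 and Jchain, a plasma cell transcript, stayed under 50. Early S cells were 6.80% of all kept cells and 8.52% of the 22757 kept cells below the Jchain limit.

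The study asked what the guanine nucleotide exchange factor DOCK8 does within B cells during the GC reaction. MD4 B cells, whose transgenic antigen receptor binds hen egg lysozyme (HEL), were transferred into CD45.1+ wild-type recipient mice, which were then immunized with sheep red blood cells coupled to HEL (SRBC-HEL). Spleens were taken on day 8. In all 6 recipients the CD45.1+ MD4 cells were Dock8 wt/wt and carried no BCL2 transgene. The CD45.2+ MD4 cells carried the BCL2 transgene (BCL2.Tg), and they were Dock8 wt/wt in 3 recipients (the wt group) and Dock8 cpm/cpm in the other 3 (the cpm group). The cpm allele is an ENU-induced mutation that leaves cells without DOCK8, so the Dock8 transcript need not fall. Cells of each recipient were stained with their own hashtag antibody, sorted as HEL-binding CD95+ cells and pooled by fraction, which gave 1 mRNA and 1 hashtag library for CD45.2+ and 1 of each for CD45.1+ cells. The BCL2 transgene, the CD45 allele and the library therefore cannot be told apart. The labels used here give no age for each mouse, and per the study's methods the mice were young adults of both sexes.

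Before a cell can copy its DNA, the origin recognition complex, Cdc6 and Cdt1 load MCM helicase rings onto origins, a step called licensing, and E2F factors then raise the genes that fire the origins and build the forks. GC B cells divide rapidly in the dark zone (DZ), where their antibody genes mutate, and test their receptors in the light zone (LZ). Uracil-DNA glycosylase, encoded by Ung, removes uracils from DNA, and Hells and Cdca7 form a remodelling complex that keeps DNA methylated through replication.

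Promoters of the 6 markers given for these cells (Mcm3, Mcm5, Mcm6, Cdca7, Hells and Ung) are shown because the genes are raised together in these cells and because E2F factors bind short GC-rich sites near many replication genes. Capitals mark matches to TTTCCCGC or TTTGGCGC, letters of the E2F consensus, on either strand. Sequences are from RefSeq on GRCm38.p6, each written on the strand of its gene: for Mcm5 (chr8:75109359-75109508, plus strand), Mcm6 (chr1:128359706-128359855, minus strand), Cdca7 (chr2:72476069-72476218, plus strand), Hells (chr19:38930840-38930989, plus strand) and Ung (chr5:114130285-114130434, plus strand) the 150 bases before the start of transcription, and for Mcm3 (chr1:20820265-20820294, minus strand) 30 bases downstream of it, in which the matches begin at bases 20 and 39 of the transcript.
Mcm3: gGCGGGAAAacttgggaagtTTTGGCGCca
Mcm5: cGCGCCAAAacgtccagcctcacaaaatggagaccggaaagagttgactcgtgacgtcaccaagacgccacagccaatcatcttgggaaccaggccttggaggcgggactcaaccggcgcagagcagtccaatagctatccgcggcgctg
Mcm6: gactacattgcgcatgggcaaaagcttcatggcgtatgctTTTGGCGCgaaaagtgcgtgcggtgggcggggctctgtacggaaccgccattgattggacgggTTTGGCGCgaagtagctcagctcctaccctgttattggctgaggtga
Cdca7: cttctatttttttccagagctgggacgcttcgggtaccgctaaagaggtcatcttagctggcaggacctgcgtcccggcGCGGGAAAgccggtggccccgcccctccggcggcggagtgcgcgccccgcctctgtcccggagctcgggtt
Hells: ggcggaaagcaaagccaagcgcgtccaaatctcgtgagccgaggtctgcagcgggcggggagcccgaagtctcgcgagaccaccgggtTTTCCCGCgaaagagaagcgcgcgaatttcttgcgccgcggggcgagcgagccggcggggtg
Ung: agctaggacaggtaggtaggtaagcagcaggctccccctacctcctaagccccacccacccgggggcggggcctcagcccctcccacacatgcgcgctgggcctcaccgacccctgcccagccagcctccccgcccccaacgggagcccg

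Within 250 bases before to 50 bases after the start, Mcm3 and Mcm6 each held 2 matches, Mcm5, Cdca7 and Hells held 1 each, and Ung held none of these letters. Of all 32851 mouse promoters of this length in the table, 1.56% held either motif (1.07% held TTTCCCGC and 0.514% held TTTGGCGC), and 1.80% of the 27025 genes did so in any of their promoters. Of the licensing genes (origin recognition and MCM loading), 15 of 17 had a promoter in the table and 8 of these held a match. The count was 7 of 32 matched genes for the replication fork, 3 of 20 for base or mismatch repair, 0 of 21 for nucleotide supply, 0 of 21 for mitosis and 0 of 7 for naive or memory B cell genes. A match is a description of letters, not a site shown to be bound.

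The library of CD45.2+ cells held 1592 early S cells of 23467 kept cells and that of CD45.1+ cells held 348 of 5083, from deposited totals of 196679316 and 37309131 UMIs. Early S cells were of moderate depth, with medians of 8135.5 UMIs and 2634 genes among CD45.2+ cells and 6183 UMIs and 2215 genes among CD45.1+ cells. Of the other cells below the Jchain limit, 1601 passed the histone limit with mitotic genes still low (histone-high cells), 3387 passed the mitotic limit (mitotic cells) and 15829 stayed below all 3 sums (rest). Their median depths were 11792, 9414 and 5700 UMIs among CD45.2+ cells. The mRNA libraries shared 38 barcodes, and no barcode was an early S cell in both.

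The Mcm limit was met by many molecules in most early S cells and by a single one in a few. Of these cells, 6 or more Mcm UMIs were counted in 1381, 3 to 5 in 370, 2 in 68 and only 1 in 121, the last with a median depth of 1100 UMIs and 5.69% mitochondrial counts. The median Mcm sum was 9.68 CP10K. The 457 early S cells within 25% above the limit had a median of 6.76 CP10K, and the 544 cells within 25% below it that met every other limit had 5.18, so the border ran through a continuous range. The histone sum was 0 in 1083 early S cells and the mitotic sum was 0 in 1384. When the UMIs of each cell of at least 4000 were divided at random into a pair of equal parts, 55.6% of the CD45.2+ and 67.3% of the CD45.1+ cells that were early S by one part were early S again by the other, where all cells gave 6.49% and 8.03%.

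The markers of B cells were abundant in these cells. Of the 5 markers that are not immunoglobulin genes, early S cells held a median of 104 UMIs in CD45.2+ and 91.5 UMIs in CD45.1+ cells, and 99.9% and 99.4% of them held 3 or more. The rest held medians of 109 and 90 UMIs, and 13101 of 13106 and 2660 of 2723 of them held 3 or more, so this count does not tell kinds of cell apart and no share in cells of another kind was measured. The 13 T cell genes summed to 52.7 UMIs per 1000000 UMIs (CPM) in CD45.2+ and 57.7 CPM in CD45.1+ early S cells, against 88.2 and 162 CPM in the rest, with Lck the most abundant and 7 of the 13 at 0 in the CD45.1+ cells. The 10 myeloid genes summed to 15.3 and 12.7 CPM, against 55.7 and 109 CPM in the rest. The 6 erythroid genes were the exception, at 67.2 and 115 CPM against 36.5 and 40.6 CPM, nearly all of it Hbb-bt, a beta-globin gene.

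Levels in each type of cell were taken from UMIs summed per mouse and fraction. This gave 11 sums, because the CD45.2+ cells of cpm mouse 2 held only 6 early S cells and sums of under 10 cells were left out. Since the cells were chosen on these same counts, the comparisons with other cells are a description without a test. A gene was counted as higher or lower when its mean log2 ratio passed 1 and had a single sign in all 11 sums, among genes of at least 50 CPM in either kind of cell. A gene low in 1 kind of cell passed this limit only through the other, where it was high. Counts by list therefore lean in that direction, and genes low in both kinds were left out.

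The MCM genes, which the rule used, set the scale. Mcm3 stood between 333 and 476 CPM in early S cells (median 417, n = 11 sums) and had a median of 278 CPM in histone-high, 129.5 in mitotic and 25.1 in rest cells. Mcm5 ranged from 255 to 406 CPM and Mcm6 from 289 to 462 CPM. These ranges were narrow beside the distance to the rest, and no early S sum came near any rest sum.

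The markers that the rule did not use stood in the same order in their medians. Cdca7 ranged from 178 to 279 CPM (median 229) in early S cells, with medians of 129 in histone-high, 59.4 in mitotic and 19.6 in rest cells. Hells ranged from 270 to 434 CPM (median 333), and its median in histone-high cells, 329, was close to it. Ung ranged from 53.6 to 120 CPM (median 69.1), with medians of 32.2, 7.35 and 6.02 CPM in the other 3. Ung was thus the marker that separated early S from mitotic cells most sharply (log2 ratio 3.07 ± 0.70, SD, higher in 11 of 11 sums), while the histone-high sums of Ung, Cdca7 and Hells overlapped their early S sums.

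**Figure D1:**
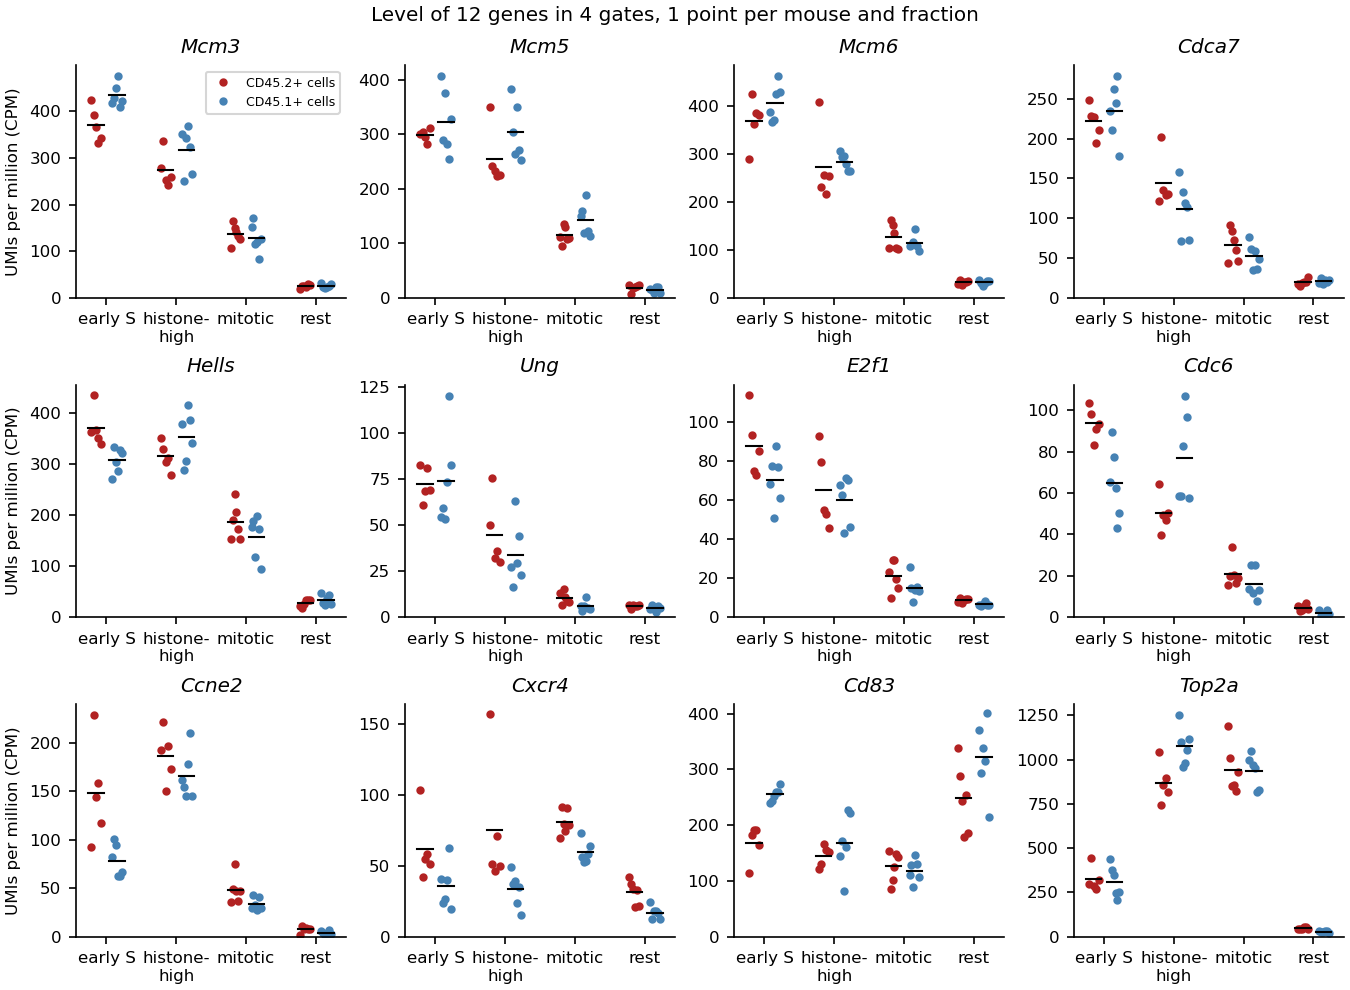
CPM (y axis, linear, from 0) of 12 genes in early S, histone-high, mitotic and rest cells (x axis), with 1 point for each mouse and fraction of at least 10 cells (red, CD45.2+; blue, CD45.1+) and a bar at the mean. Mcm3, Cdca7 and Ung fall from left to right, Ccne2 is highest in histone-high cells, and Top2a has a median of 300 CPM in early S, 980 in histone-high and 944 in mitotic cells.

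Beside the rest, the background was wide: 397 of 3137 genes were higher in early S cells (12.7%) and 191 were lower (6.09%), with a median log2 ratio of 0.21 over all genes compared. The highest ratios belonged to Cdc6, the MCM loader (4.28 ± 0.70, SD, n = 11), Ccne2, an E-type cyclin (4.15 ± 0.62), Mcm5 (4.11 ± 0.55), the clamp-associated factor Pclaf (4.05 ± 0.58) and Mcm3 (3.97 ± 0.32). Esco2, Lig1, Clspn, Rrm2, Ncapg2, Chaf1a, Uhrf1 and Tcf19 were among those that followed, between 3.94 and 3.71. Among the lowest were S100a6 (-4.56), Lgals3 (-4.33), Plac8 (-3.99) and S100a10 (-3.80).

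Grouped by role, DNA copying and its supplies were higher nearly throughout among the genes compared. Of 17 licensing genes listed 11 were compared, and the most abundant in the rest, Mcmbp, stood at 49.8 CPM in CD45.2+ and 37.7 CPM in CD45.1+ cells. The licensing genes thus reached 50 CPM largely through early S cells, which favoured higher in their count. Of 8 licensing genes compared besides Mcm3, Mcm5 and Mcm6, whose sum the rule set, 7 were higher than in the rest (median 3.03). The count was 25 of 27 for the fork (2.75), 14 of 18 for nucleotide supply (1.76), 10 of 12 for chromatin and methylation copying (2.23) and 14 of 17 for base or mismatch repair (1.50). None of these 5 lists had a lower gene. Genes such as Lig1, Rrm2 and Msh6 (means of 20.0, 13.8 and 17.5 CPM in the rest) also passed the filter only through early S cells. The filter thus favoured higher in the fork, nucleotide supply and repair lists as well. Among the 16 G1 to S regulators 11 were higher, and the cyclin Ccnd2 (-2.22) and the cell cycle inhibitor Cdkn1b (-2.10) were lower. Of 24 mitotic genes listed only 10 were compared, and 9 were higher (2.20), with the mitotic sum kept low by the rule in both kinds of cell. In the rest the most abundant, Mki67, had a mean of 64.2 CPM and Top2a had 38.7 CPM, so the filter favoured higher here too. Genes of Myc and ribosome assembly were higher in 7 of 13 and heat shock genes in 1 of 8.

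The DZ label held in part. Of 6 DZ genes compared, 3 were higher than in the rest, among them the nuclear GTPase gene Nuggc (1.37) and Gcsam (2.12), while Foxo1 (0.33), Tcf3 (0.28) and Bach2 (0.15) stayed near the median of all genes. Cxcr4, the chemokine receptor that holds cells in the DZ, had a median of 42.0 CPM in early S, 46.7 in histone-high, 71.6 in mitotic and 21.4 in rest cells, too low for the comparison with the rest. The DZ genes did not set early S cells above other cycling cells. Beside histone-high cells none of 7 compared was higher or lower (median 0.17). Beside mitotic cells none of 8 was higher and 1 was lower (median -0.53). Of 10 LZ activation genes none was higher and Il4i1 (-1.35) was lower. Cd83, the usual LZ surface marker, was not low: its median was 240 CPM in early S cells, 155 in histone-high, 127 in mitotic and 290 in rest cells. GC identity genes were higher than in the rest in 6 of 12, among them the GC regulator Bcl6 (1.04), the confinement receptor S1pr2 (1.59) and Mef2b (1.45). None of the 12 was higher or lower beside histone-high or mitotic cells. Naive or memory B cell genes were lower in 9 of 11 (median -2.54), among them Klf2 (-3.44) and S1pr1 (-3.73). Only 6 genes of this list could be compared beside histone-high cells. Several, such as S1pr1 (means of 17.7 CPM in early S and 160 CPM in rest cells), thus passed the filter only through the rest, which favoured lower.

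Beside histone-high cells, early S cells stood above in very few genes: 1 of 3057 was higher (0.0327%) and 81 were lower (2.65%). The higher one was Sema7a, a membrane semaphorin (1.15 ± 1.64, SD), and it rested on the CD45.1+ sum of wt mouse 1 (5.90), without which its mean was 0.68. Pkp3 (0.99), Cyth4 (0.93), Cdca7 (0.90) and the G1 cyclin Ccnd3 (0.47) were above in 11 of 11 sums by less than the limit. The 9 licensing genes outside the rule had a median of 0.05 with none past the limit, and fork genes had -0.23 with none past it. Nucleotide supply was lower in 3 of 18, namely Tyms (-1.18), Tk1 (-1.14) and Rrm2 (-1.09), and the repair list was lower in 2 of 19. All 12 clustered histone genes outside the rule were lower (median -3.11), in the direction that the rule set for Hist1h2ap and Hist1h1b. Of 19 mitotic genes outside the rule 16 were lower (-1.65), with the limit on the mitotic sum the same for both kinds of cell. Counting genes of the rule, 20 mitotic genes were compared here but only 10 beside the rest, and 14 against 5 clustered histones. Several genes of both lists thus passed the filter only through histone-high cells, which favoured lower in these counts. Ccna2, the cyclin of S phase and G2, was lower by 2.18 on the same scale.

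Beside mitotic cells, 21 of 3104 genes were higher (0.677%) and 117 were lower (3.77%). After Ung came Cdc6 (2.07 ± 0.44, SD), E2f1 (2.06 ± 0.44), Cdca7 (2.04 ± 0.51), Mcm6 (1.74), the single-strand binding subunit Rpa2 (1.71) and Mcm3 (1.65). Of 8 licensing genes outside the rule 3 were higher (median 0.92), namely Cdc6, Mcm2 and Mcm4, and the fork list had a median of 0.62. In the repair list Ung was higher and the translesion polymerase gene Polh (-1.93) was lower, while the mismatch repair gene Msh6 (0.79) did not pass the limit. The lowest ratios were those of Cenpf (-4.71), Aspm (-4.30) and Ccnb1 (-4.29), of which Cenpf and Ccnb1 were in the rule.

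**Figure D2:**
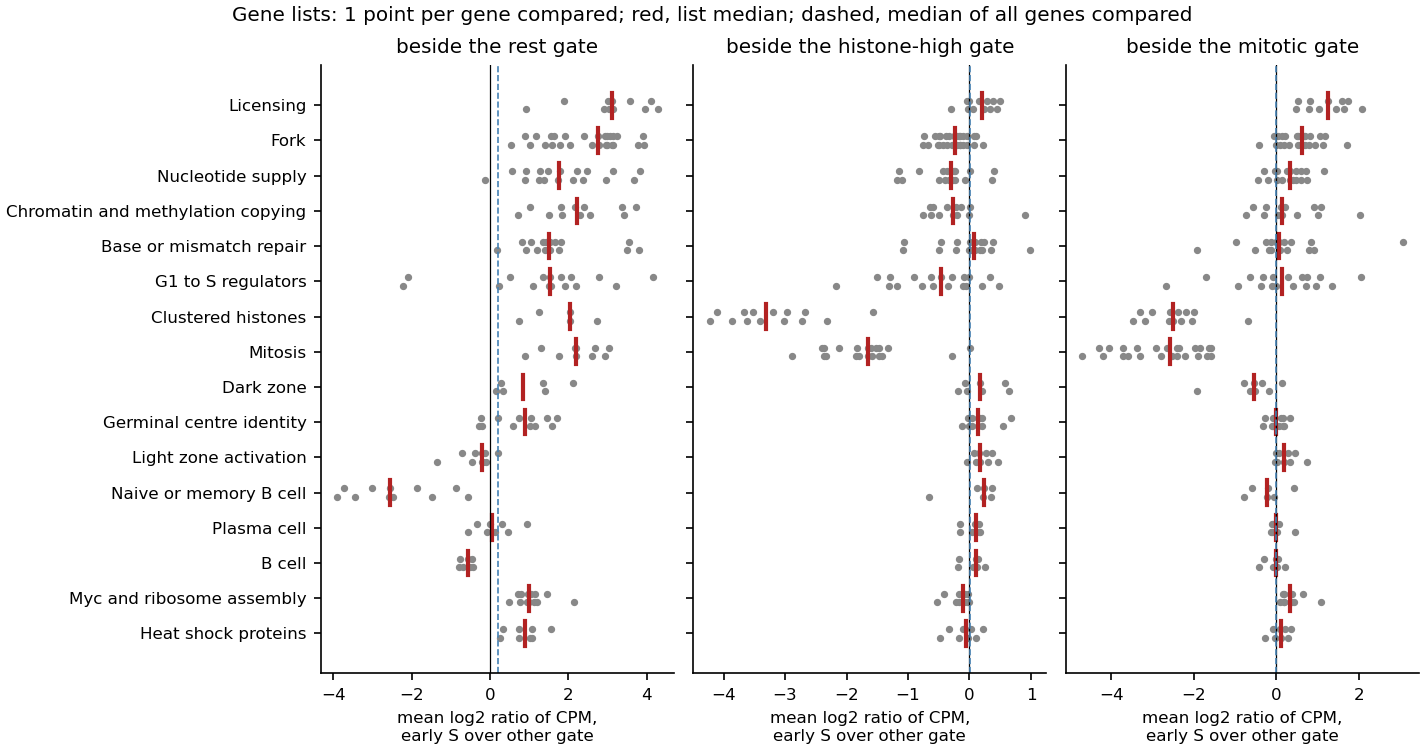
Mean log2 ratio of CPM (x axis) of early S cells over rest, histone-high and mitotic cells in 16 gene lists (y axis), with 1 grey point per gene compared, a red bar at the list median and a dashed line at the median of all genes compared. Licensing, here with the 3 Mcm genes of the rule, has a median of 3.11 beside the rest, 0.20 beside histone-high and 1.25 beside mitotic cells, and naive or memory genes stand at -2.54 beside the rest.

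Beside the rest, the same directions were found when the counts that made the choice were set aside, though the cells stayed the same. With the cells chosen on a random part of their UMIs and the levels read from the remainder (10 sums), 387 genes were higher and 205 lower than in the rest of 3127. The licensing list had a median of 2.84, but it still held Mcm3, Mcm5 and Mcm6, whose direction the choice of cells favoured. The fork list, without genes of the rule, had a median of 2.76, and the naive or memory list had -3.18.

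Levels within early S cells varied with the sums that the rule used. Among those of at least 2000 UMIs, Ung stood at 61.3, 74.9 and 82.1 CPM in CD45.2+ cells with Mcm sums of 6 to 10, 10 to 15 and 15 CP10K or more (814, 482 and 157 cells), and at 43.4, 87.7 and 99.3 CPM in CD45.1+ cells (146, 114 and 72 cells). Ung was thus lowest where the Mcm sum was lowest in both fractions. Cells with a histone UMI below the limit were deeper than cells without one (medians of 10043.5 against 7216 UMIs in CD45.2+ and 8047.5 against 5905 UMIs in CD45.1+ cells), and the part of depth in the values that follow was not tested. Ccne2 stood at 167 against 86.3 CPM in CD45.2+ and at 107 against 60.1 CPM in CD45.1+ cells, Top2a at 344 against 207 CPM and 469 against 207 CPM, and Pclaf at 966 against 555 CPM and 1151 against 496 CPM. These are pooled values over cells of several mice and carry no test.

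The share of early S cells was then compared between fractions and groups. It was taken among cells below the Jchain limit that a hashtag assigned to 1 mouse, with the highest hashtag at 10 counts or more and at least 3 times the next. In CD45.2+ cells the share was 5.21% (102 cells), 5.92% (157) and 7.64% (119) in wt mice 1 to 3, and 4.52% (10), 4.20% (6) and 4.50% (19) in cpm mice 1 to 3. In CD45.1+ cells it was 11.2% (38), 7.27% (32) and 10.6% (85) in the wt mice and 9.71% (56), 11.3% (46) and 6.52% (48) in the cpm mice. The CD45.2+ share was below the CD45.1+ share in every mouse.

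Within a mouse, the CD45.2+ share was different by a mean of -4.10 percentage points (5.33% ± 1.29 against 9.43% ± 2.05, SD, n = 6 mice, lower in 6 of 6). A two-sided exact sign-flip test gave p = 0.03125, the smallest that 6 pairs allow. The pairs mix CD45.2+ cells labelled Dock8 wt/wt and Dock8 cpm/cpm, so this test does not separate genotype from transgene. All pairs came from the same libraries, so p does not cover spread between libraries. In the wt mice alone, the mean difference ran from -4.47 to -2.15 points with 1 mouse left out. There 3 pairs allow no exact p below 0.25. As a share of the 3 cycling types of cell (early S, histone-high and mitotic) the difference was -15.2 points (20.9% ± 4.07 against 36.1% ± 3.81, lower in 6 of 6, exact p = 0.03125). After each cell was thinned to 2000 UMIs, which left out 139 CD45.2+ and 16 CD45.1+ early S cells of fewer, the first difference was -3.50 points and again lower in 6 of 6. With HTODemux values normalized over each cell, HTODemux being the assignment procedure of Seurat, it was lower in 4 of 6 (-5.01 points, exact p = 0.219), but this left the cpm mice with 7, 0 and 3 early S cells of 26, 16 and 56 CD45.1+ cells. With HTODemux values normalized over each hashtag it was -3.96 points and lower in 6 of 6 (exact p = 0.03125). With 1 mouse left out the smallest possible exact p was 0.0625, which every such test gave. This within-mouse test was added after the data had been seen.

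Most CD45.2+ early S cells could not be given a mouse, and the early S share of CD45.2+ cells without hashtag counts stood apart. Of the 1592, 413 (25.9%) were assigned, 305 were ambiguous and 874 (54.9%) had no hashtag counts. Early S cells were 5.94% of assigned, 7.02% of ambiguous and 11.2% (95% exact binomial interval 10.5 to 11.9%) of untagged CD45.2+ cells. In CD45.1+ cells 305 of 348 were assigned, and the shares were 9.23%, 7.77% and 13.2%. Over all cells of a library the fractions were close, at 8.34% for CD45.2+ and 9.48% for CD45.1+ cells. The part of hashtag recovery in the difference per mouse was not tested.

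Between groups, the CD45.2+ share differed by -1.85 points, cpm minus wt group (4.41% ± 0.184 against 6.26% ± 1.25, SD, n = 3 and 3), with no overlap and the smallest exact permutation p that 3 against 3 allow, 0.1. As a share of the cycling cells the difference was -6.32 points (17.7% ± 2.93 against 24.1% ± 1.69), again with no overlap and an exact p = 0.1. Assignment with HTODemux turned the direction of the first difference, to 0.474 points (exact p = 0.8), but left the cpm mice with 4, 2 and 7 early S cells of 56, 39 and 94 CD45.2+ cells. Thinning to 2000 UMIs kept it, at -1.11 points (exact p = 0.4) and at -2.87 points of the cycling cells (exact p = 0.8), and the groups then overlapped in both. They also overlapped as a share of all kept cells (-0.803 points, exact p = 0.2). Without wt mouse 3 the first difference was -1.16 points. Only 35 early S cells carried a cpm-group hashtag in the CD45.2+ library. In CD45.1+ cells, all of them Dock8 wt/wt, the groups overlapped and differed by -0.522 points (exact p = 0.7).

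**Figure D3:**
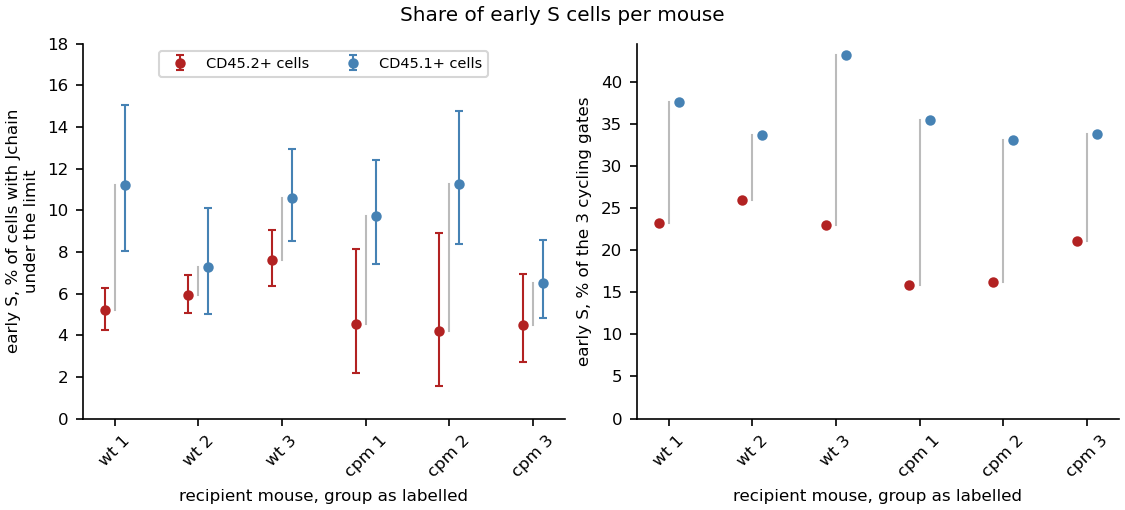
Early S cells as a percent of cells below the Jchain limit (left, with 95% exact binomial intervals, which cover counting error only) and of the 3 cycling types of cell (right) in each recipient mouse (x axis), for CD45.2+ (red) and CD45.1+ (blue) cells joined by a line. The red point lies below the blue point in all 6 mice, and the red points of cpm mice 1 and 2 rest on 10 and 6 cells.

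Sex-linked transcripts went against what the group labels and the study's note on donor sex would give together. In the early S cells labelled CD45.2+ wt, Xist, the RNA of the inactive X chromosome, stood at 1202, 1340 and 1390 CPM and 4 Y-linked genes summed to 7.32, 14.0 and 10.8 CPM. In those labelled CD45.2+ cpm, Xist stood at 362, 118 and 425 CPM and the Y-linked sum at 82.7, 29.5 and 117 CPM. The wt-labelled cells were thus high in Xist and low in Y-linked RNA, whereas the note names the wild-type donors as male and the mutant donors as female. Over all kept cells labelled cpm, 59.8%, 58.8% and 48.9% in mice 1 to 3 held an Xist UMI and 53.7%, 56.3% and 62.2% held a Y-linked UMI, against 97.6 to 98.0% and 5.78 to 8.00% of those labelled wt, so both transcripts were found among cells with the cpm hashtags. In number, kept CD45.2+ cells with cpm hashtags were few, at 229, 160 and 481 in mice 1 to 3 against 2388, 3486 and 2087 with wt hashtags. A single barcode held both transcripts in 76, 45 and 133 of the cells with cpm hashtags. This was so in 136, 272 and 124 of those with wt hashtags, and the cause was not tested. Any direction between the CD45.2+ groups therefore refers to hashtag labels, and so does the genotype given to the partners of the CD45.1+ cells.

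**Figure D4:**
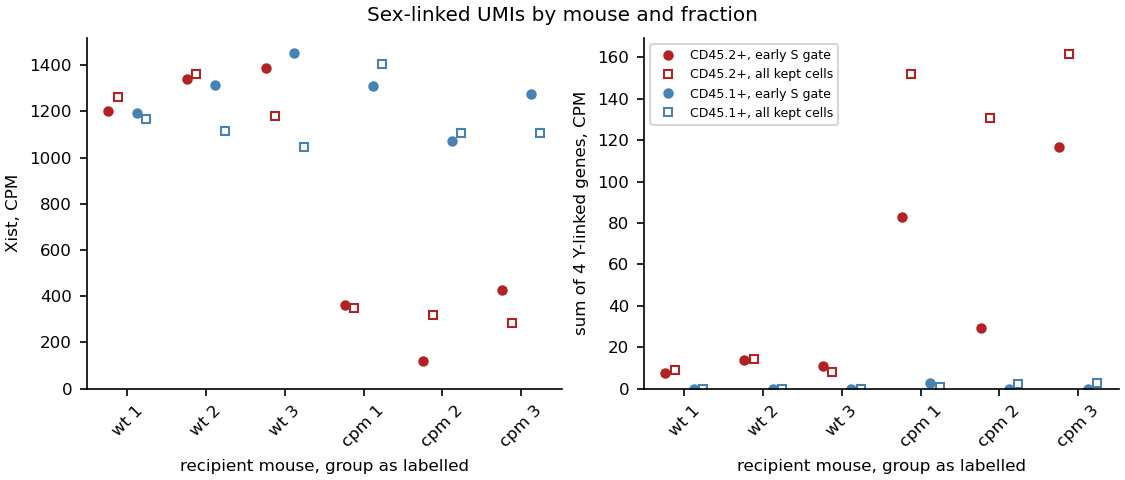
CPM of Xist (left) and of 4 Y-linked genes summed (right) in each recipient mouse (x axis) for CD45.2+ (red) and CD45.1+ (blue) cells, in early S cells (filled circles) and in all kept cells (open squares). CD45.2+ cells labelled cpm lie between 118 and 425 CPM for Xist and all other sums above 1000 CPM.

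The fractions were compared gene by gene in the 3 wt mice, where both were labelled Dock8 wt/wt, with the quasi-likelihood test of edgeR on sums per mouse and the mouse as a block. Of 7302 genes, 252 were called at an adjusted p below 0.05 (3.45%), 138 higher (1.89%) and 114 lower (1.56%) in CD45.2+ cells. Of the 9 genes that the rule used, 2 were among those called higher and 1 among those called lower. They are left out of the counts by list that follow. The mouse gene Bcl2, which encodes an inhibitor of apoptosis, was named after its values had been seen and stood at 113, 130 and 68.3 CPM in CD45.2+ and at 14.6, 0 and 14.4 CPM in CD45.1+ cells of mice 1 to 3. The fractions did not overlap, and Bcl2 was higher by 2.98 ± 0.32 (log2, SE, edgeR adjusted p = 6.56e-18). Reads were counted on mouse genes, and how many of them came from the BCL2 transgene was not tested.

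Few licensing genes were called between the fractions, whose cells had all met the same Mcm limit. That choice may hold genes that vary with the MCM genes level, and its part was not tested. The same limit applies to licensing genes in the comparisons between groups below. Of 14 tested that the rule did not use, Cdc6 was higher (0.77 ± 0.22, edgeR adjusted p = 0.0224) and none was lower, with a list median of 0.00 against -0.01 for all genes. Mcm3, on which the cells were chosen, stood at 365, 333 and 342 CPM in CD45.2+ and 476, 409 and 423 CPM in CD45.1+ cells, which is a description only. Cdca7 (-0.09), Hells (0.15) and Ung (-0.33 ± 0.20, adjusted p = 0.553) were not called. The call of Cdc6 was lost without wt mouse 2 (edgeR adjusted p = 0.19), without wt mouse 3 (0.35) and with HTODemux values normalized over each cell (0.099).

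A few cell cycle genes were higher in CD45.2+ early S cells. Ccne2 stood at 145, 159 and 117 CPM in CD45.2+ and at 62.2, 62.6 and 66.6 CPM in CD45.1+ cells, without overlap (1.04 ± 0.19, edgeR adjusted p = 5.51e-06), and this call held under every alternative that gave an adjusted p. Of 23 G1 to S regulators tested, Ccne2, Ccna2 (1.29) and Ccnd2 (1.58) were higher and none was lower. DNA ligase 1, Lig1 (0.50), was the one of 41 fork genes called, a share near that called higher over all genes. Of 12 histone genes tested that the rule did not use, Hist1h2ae (0.95) was higher, and the copies of this cluster may share reads. Birc5 (0.72) and Cenpa (0.71) were higher among 18 mitotic genes that the rule did not use (median 0.45). The calls of Ccna2, Ccnd2, Lig1, Hist1h2ae, Birc5 and Cenpa were lost without wt mouse 3, for which 110 genes were called in all. Those of Ccna2, Ccnd2 and Cenpa were also lost without wt mouse 1, and those of Ccna2, Birc5 and Cenpa without wt mouse 2.

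Genes of naive or memory B cells were higher in 7 of 11 tested, with none lower and a list median of 1.03. The IgD gene Ighd stood at 141, 160 and 103 CPM in CD45.2+ and at 14.6, 14.4 and 91.8 CPM in CD45.1+ cells (1.26 ± 0.20, edgeR adjusted p = 7.14e-08). The transcription factor gene Klf2 stood at 134, 129 and 85.8 CPM against 14.6, 62.6 and 50.4 CPM (1.31 ± 0.22, edgeR adjusted p = 4.51e-07). In both genes the lowest CD45.2+ value was above the highest CD45.1+ value. The egress receptor S1pr1 (1.47), Gpr183 (1.06), Ly6d (0.38) and Btg1 (0.29) were also among the 7. The count was 2 of 11 without wt mouse 1 and 5 of 11 without wt mouse 2 or 3, and with HTODemux assignment it was 1, namely S1pr1. DESeq2 called none, but gave no adjusted p to 9 of the 11. The direction was not particular to early S cells in levels read from a random part of the UMIs and pooled over all mice. There Ighd stood at 139 CPM in CD45.2+ and 33.8 CPM in CD45.1+ histone-high cells, and at 177 and 51.9 CPM in mitotic cells. Klf2 stood at 137 and 83.9 CPM, and at 187 and 93.6 CPM, in the same order. These pooled values carry no test.

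Of the LZ, GC identity and B cell lists, 6 genes were lower. Cd83 stood at 191, 192 and 165 CPM in CD45.2+ and at 260, 260 and 274 CPM in CD45.1+ cells (-0.58 ± 0.12, edgeR adjusted p = 0.000168), the one of 17 LZ genes called, and this call was lost without wt mouse 3 (adjusted p = 0.19). Rgs13, a regulator of chemokine signalling (-0.79), and Basp1 (-0.55) were lower among 12 GC identity genes, and that of Rgs13 was not called without wt mouse 1 (adjusted p = 0.051). Of 7 B cell markers, Cd74 (-0.27), Ms4a1 (-0.27) and Cd79b (-0.18) were lower and Ighm (0.37) was higher, with Cd79b not called without wt mouse 1 or 3. Of 11 plasma cell genes other than Jchain, Slpi (1.19) was higher, and of 14 genes of Myc and ribosome assembly Mif (0.36) and Ranbp1 (0.36) were. No gene of the DZ list (8 tested), of the repair list (28) or of nucleotide supply (22) was called. The erythroid transcript Hbb-bt was lower in CD45.2+ cells (-1.22, not called without wt mouse 3), and its part in these results was not tested.

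**Figure D5:**
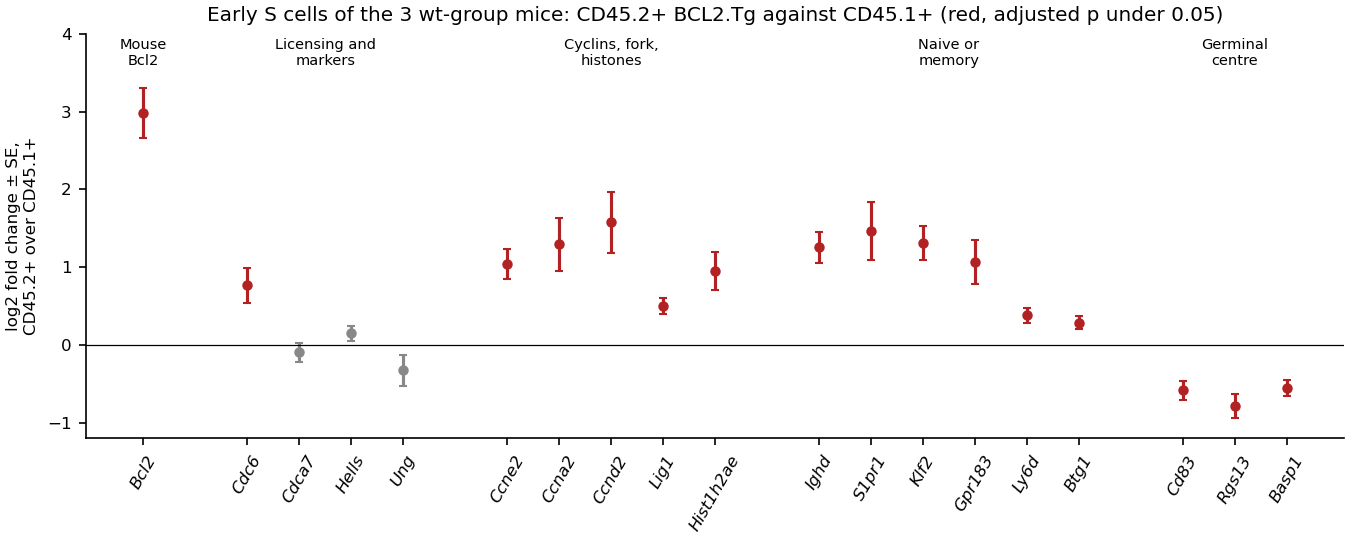
Log2 fold change with its standard error (y axis) of CD45.2+ BCL2.Tg over CD45.1+ early S cells in the 3 wt mice for genes named in the text (x axis), from edgeR, with genes of adjusted p below 0.05 in red and the others in grey. Bcl2 stands at 2.98, the naive or memory genes shown between 0.29 and 1.47, and Cd83, Rgs13 and Basp1 between -0.79 and -0.55.

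The strongest calls whose fractions did not overlap were mostly small shifts of abundant transcripts. Gm10800 (4.05), Hmgb2, an HMG-box chromatin protein (0.54), the ribosomal protein genes Rps29 (0.42) and Rpl39 (0.43) and the lncRNA Gm10076 (0.76) were higher. AY036118, a lncRNA at chr17:39847113-39848035 on GRCm38 (-1.15), Tpt1 (-0.54), the mitochondrial transcripts mt-Atp6 (-0.41) and mt-Nd4 (-0.47) and the histone variant gene H3f3a (-0.41) were lower. Gm10800 (chr2:98666547-98667301), Gm10076 and AY036118 may share reads with copies elsewhere and are uncertain. Each library is 1 preparation, so a shift of its capture and the effect of the transgene cannot be told apart. Dock8 (chr19:24999534-25202432) did not differ detectably in these cells labelled Dock8 wt/wt (94.5 ± 10.4 against 103 ± 10.3 CPM, SD, n = 3 and 3, edgeR adjusted p = 0.759).

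Within CD45.2+ cells, early S cells labelled cpm (mice 1 and 3) were compared with those of the 3 wt mice. Dock8 itself stood at 72.4 and 84.0 CPM against 87.9, 107 and 89.1 CPM, with no overlap and no call (-0.28 ± 0.31, edgeR adjusted p = 0.947). Over all genes tested here, 31.2% did not overlap between the groups. Of 8102 genes 12 were called (0.148%), 7 higher (0.0864%) and 5 lower (0.0617%), and 506 had an unadjusted p below 0.05. No gene of the licensing (14 that the rule did not use), fork (41), nucleotide supply (22), repair (30), DZ (8), LZ (17) or naive or memory (11) lists was called. Ung stood at 82.7 and 60.7 CPM against 68.7, 81.3 and 69.1 CPM, and the groups overlapped.

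The called genes included chaperones. Of 8 heat shock genes tested, 2 were higher, namely the mitochondrial co-chaperone Hspe1 (517 and 910 CPM against 487, 445 and 507 CPM, 0.65 ± 0.13, edgeR adjusted p = 0.00382) and Hsp90aa1 (1023 and 1269 CPM against 851, 816 and 829 CPM, 0.47 ± 0.11, edgeR adjusted p = 0.026). The HSP90 co-chaperone gene Ptges3 (0.76) was also higher. The groups did not overlap in either gene, but Hspe1 in cpm mouse 1 lay only just above wt mouse 3, and without cpm mouse 3 its log2 difference was 0.02 and that of Hsp90aa1 was 0.21. Hspe1 was also not called without wt mouse 1 or 2, and Hsp90aa1 was not called without any 1 of the wt mice. The lncRNA 4933439K11Rik was higher at 1 and 10 UMIs against 1, 4 and 0, and its call held where it passed the filter on low counts, which it did not do without any 1 of the wt mice, without cpm mouse 3, in the fit of all 4 groups or with HTODemux values normalized over each cell. The 5 lower genes were Igkc (-0.30), Gm30211 (-0.83), mt-Co2 (-0.39), H3f3a (-0.36) and the phosphate exporter gene Xpr1, which had no UMI in either cpm sum against 29.1 CPM ± 0.297 (SD, n = 3), at least 3.01-fold lower by a floor of 3 counts over the group. The remaining higher genes were Gm43305 (1.35) and, with overlapping groups, Zfp60 and B930036N10Rik. Without at least 1 of the mice, the calls of Ptges3, Igkc, Gm30211, mt-Co2, Gm43305 and Xpr1 were lost, and without cpm mouse 1 the difference of Gm43305 was 0.63. Of the sex-linked genes, counted apart, Ddx3y and Eif2s3y were higher and Xist was lower in the cells labelled cpm. DESeq2 called 1 gene here, and edgeR called 1, 3 and 4 genes without wt mice 1, 2 and 3, 56 without cpm mouse 1 and 3 without cpm mouse 3. The last pair of fits had a single cpm sum, which was assumed to vary like the wt sums. A self-test on simulated counts recovered 20% of 2-fold and 64% of 4-fold changes in this comparison, so many changes of these sizes could be missed.

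The CD45.1+ early S cells, Dock8 wt/wt throughout, were compared by the labelled genotype of the CD45.2+ cells that shared their mouse. Of 4311 genes 5 were called (0.116%), 4 higher (0.0928%) and 1 lower (0.0232%) in the cpm group. The chaperone gene Hsp90b1 stood at 300, 732 and 536 CPM against 205, 245 and 236 CPM (1.15 ± 0.20, edgeR adjusted p = 0.00653), and Top2a, a topoisomerase of replicating and dividing cells, at 436, 375 and 351 CPM against 245, 207 and 256 CPM (0.65 ± 0.14, edgeR adjusted p = 0.0357). The groups overlapped in neither, and Hspa8 (0.50) and Tuba1b (0.58) were higher likewise, whereas Plac8 (-2.15) was lower with overlapping groups. DESeq2 called none of these (97 genes at an unadjusted p below 0.05), and without wt mouse 3 edgeR called none either. Without cpm mouse 2 edgeR called 1 gene, which was not among the 5. Hspa8 and Tuba1b were not called without cpm mouse 3 (edgeR adjusted p = 0.107 and 0.273) or without wt mouse 1 (0.0618 and 0.0733). Hsp90b1 was also not called with HTODemux assignment, which gave it a log2 difference of 0.28 (edgeR adjusted p = 0.688), and Top2a was not called without any 1 of the 6 mice. Of 11 licensing genes that the rule did not use and 37 fork genes tested none was called. Ung stood at 54.6, 59.5 and 53.6 CPM against 73.2, 120 and 82.8 CPM without overlap, and this difference did not pass the test (-0.70 ± 0.25, edgeR adjusted p = 0.398). Over all genes tested here, 13.1% did not overlap between the groups.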

How the data were processed

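Per the labels and the study's methods, the authors captured sorted splenic MD4 GC B cells with 10X Genomics 3' chemistry v3.1 and quantified reads on mm10 with Cell Ranger 5.0.1, and the submitters' processing notes also name Seurat 4.0. The deposited values are raw UMI counts per gene and barcode and hashtag counts per barcode, without normalization, for 24241 CD45.2+ and 5232 CD45.1+ barcodes (the study states slightly more captured cells). The hashtag of each mouse came from the authors' hashtag table. No doublet caller was run, and barcodes with ambiguous hashtags were left out of every comparison over mice.

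Cells of 100 to 5500 genes and under 10% mitochondrial counts were kept. Hashtags were assigned by the highest at 10 counts or more and 3 times the next, or by HTODemux (quantile 0.99, Seurat 5.3.0, R 4.3.3). CPM are counts per 1000000 UMIs of a sum, and log2 ratios used a pseudocount of 1 CPM. Genes were tested with edgeR 4.0.16 (quasi-likelihood, TMM, filterByExpr, Benjamini-Hochberg at 0.05) on sums of at least 10 cells, with DESeq2 1.42.0 as the second tool. Shares were compared by two-sided exact tests in Python 3.11.15 (numpy 2.4.6, pandas 2.3.3, scipy 1.17.1, seed 1), and plots used matplotlib 3.10.9. The mouse was the block between fractions, since both came from that animal. On simulated counts edgeR recovered 52% of 2-fold and 91% of 4-fold changes between fractions, 20% and 64% between CD45.2+ groups, and 74% and 91% between CD45.1+ groups. All genes were drawn with the common dispersion of their comparison and without differences between mice, so genes that vary more could be recovered less often. The simulated sets also differed (7309, 8111 and 4316 genes), so these percentages are not strictly comparable.

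The limits that define early S cells, the markers, gene lists and tests were chosen with earlier results of these data known. Named genes are those of the rule and markers, members of the lists, Dock8, in each gene test the 10 of smallest adjusted p among those called without overlap (5 in each direction where there were as many), and in each description those among the 15 highest and 5 lowest ratios of 1 sign in all sums. Bcl2, Zfp60, B930036N10Rik and Plac8 were named after their values had been seen. Some genes that these rules would name are not reported here. Gene positions are from GENCODE M21 on GRCm38.

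Alternatives were HTODemux, no minimum hashtag count, Mcm limits of 4 and 10 CP10K, at least 500 genes with under 5% mitochondrial counts, thinning to 2000 UMIs, cells of at least 2000 UMIs, random parts of the UMIs of cells of at least 4000, shares of all kept cells, DESeq2, no filter on low counts, no block, all 4 groups in 1 fit and each mouse left out. HTODemux with values normalized over each cell, the within-mouse test of shares, the limit of 2000 UMIs for CD45.1+ groups, the listing of sex-linked UMIs, leaving out each sum for genes called higher beside histone-high cells and list counts without the genes that define the cells were chosen after seeing the data. Intervals (95%) and the floor of 3 counts cover counting error only.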

Additional observations from a re-analysis of the deposited data

How the results depend on the processing

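HTODemux reversed the CD45.2+ difference between groups, to 0.474 points of the share and 0.825 points of the share of cycling cells (exact p = 0.8 for both), with 4, 2 and 7 early S cells in the cpm mice. With HTODemux values normalized over each cell these were -0.757 and -3.10 points with overlapping groups (exact p = 0.6 and 0.7). At an Mcm limit of 4 CP10K the difference in the share of cycling cells was -8.04 points with overlap (exact p = 0.2), and at a limit of 10 CP10K the differences were -0.914 and -3.79 points without overlap (exact p = 0.1). With 1 mouse left out they ran from -2.37 to -1.16 and from -8.01 to -5.35 points. The CD45.1+ difference between groups, not called at any setting, was 0.202 points with HTODemux values normalized over each cell, 0.360 as a share of all kept cells, and between -1.73 and 0.801 with 1 mouse left out (0.238 without wt mouse 1 and 0.801 without cpm mouse 3). The within-mouse difference between fractions was -5.01 points with HTODemux values normalized over each cell and -13.1 points of cycling cells (lower in 4 of 6 mice, exact p = 0.219 for both), and with 1 mouse left out it ran from -4.64 to -3.50 and from -16.7 to -14.2 (exact p = 0.0625, the smallest for 5 pairs). The causes were not tested.

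Counts of called genes moved more. Between fractions (252) DESeq2 called 71, giving no adjusted p to 6943 genes, HTODemux 112, and each mouse left out 110 to 172. The fractions of a mouse were paired as a replicate block, and without that block 162 were called, all of them among the 252. Between CD45.2+ groups (12) DESeq2 called 1, no filter on low counts 28, a fit of all 4 groups 4 and each mouse left out 1 to 56; HTODemux left too few cells for a fit. Between CD45.1+ groups (5) DESeq2 called 0, no filter 20, HTODemux 2 and each mouse left out 0 to 9; HTODemux values normalized over each cell left too few cells. Leaving out cpm mouse 2 changes nothing between CD45.2+ groups, since its 6 cells were not in the fit. Of the other values of named genes in the gene tests, 538 kept direction and call, 133 lost the call and 1 gained it, and none changed sign with a call.

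Depth limits the cpm-labelled CD45.2+ cells most, whose smaller sum held 96736 UMIs from 10 cells.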

Other observations

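Early S cells without hashtag counts were close to assigned ones in the 3 markers outside the rule, Ung, Hells and Cdca7, and in Ccne2. Among CD45.2+ early S cells of at least 2000 UMIs, Ung stood at 71.3 CPM in 757 untagged and 72.9 CPM in 392 assigned cells, Hells at 346 and 358 CPM, Cdca7 at 217 and 213 CPM and Ccne2 at 143 and 148 CPM. The 304 with ambiguous hashtags had 56.0, 288, 166 and 108 CPM of these genes in that order and a median depth of 12152 UMIs, against 9395.5 UMIs in the assigned. Each is a pooled value over an unknown mix of mice.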
